A study of Mus musculus with 15 samples.

Results

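The receptor chains for IL-25, TSLP, IL-7 and the other γ-chain cytokines were followed through 15 RNA-seq libraries of mouse group 2 innate lymphoid cells (ILC2s) and of their bone marrow precursors (ILC2p). The chains were taken by gene symbol and were 10 of the 24089 symbols in the deposited gene tables: Il17rb, Il17ra, Crlf2, Il7r, Il2ra, Il2rb, Il2rg, Il4ra, Il9r and Il21r. ILC2s were sorted from the intestinal lamina propria (LP) of C57BL/6 mice that carried floxed Tgfbr2 alleles and ER-Cre, a tamoxifen-inducible recombinase active in all tissues. Mice given tamoxifen for 5 days (1 mg per day) gave the Tgfbr2-/- libraries and mice given sunflower oil gave the libraries labelled WT, so both carried the same alleles and Cre, and tamoxifen and loss of the receptor cannot be told apart. The mice were 8 to 12 weeks old when treated. ILC2p were donor-derived CD45.2+ cells from mixed bone marrow chimeras. The donors were mice with the same alleles and Cre, given tamoxifen or oil before transfer. Their marrow was mixed in equal parts with CD45.1 marrow and given to irradiated CD45.1 hosts, which were analysed 6 weeks after transfer. There were 4 WT and 3 Tgfbr2-/- ILC2 libraries and 4 WT and 4 Tgfbr2-/- ILC2p libraries, from 2 experiments per cell type. Nothing used here says that the libraries of a group came from separate mice, so the p-values measure the spread between these samples. Gene counts summed to between 10957021 and 35961215 per library, and all 10 chains passed the filter on low counts in every comparison.

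These chains act as pairs and trios. IL-25 signals through IL-17RB with IL-17RA, and TSLP through CRLF2 (TSLPR) with the IL-7 receptor α chain. The common γ chain, encoded by Il2rg, is the shared signalling partner for IL-2, IL-4, IL-7, IL-9 and IL-21, and uses JAK3 to activate STAT proteins. In ILC2s, IL-25 and TSLP are known as activating signals from epithelium, IL-7 and IL-2 as survival and growth signals, and IL-9 as an autocrine factor.

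The genes lie at chr14:30809327-30822082 (Il17rb), chr6:120413215-120433745 (Il17ra), chr5:109983730-109988012 (Crlf2), chr15:9435916-9459631 (Il7r), chr2:11564419-11614818 (Il2ra), chr15:78310983-78325496 (Il2rb), chrX:98459717-98463594 (Il2rg), chr7:132695785-132722986 (Il4ra), chr11:32087541-32100279 (Il9r) and chr7:132746943-132777084 (Il21r) in NCBIM37, the mm9 assembly. Il4ra and Il21r are neighbours on chromosome 7. The counts sum reads over a gene's whole transcript.

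The 250 bases before the start of 3 chains that differed between groups are shown because the letters AGATAA, the core read by GATA factors such as the ILC2 regulator GATA3, and TTCNNNGAA, the core read by STAT5, could be searched in them. Il2rb and Il17ra have no entry in the RefSeq promoter table. The sequences are from RefSeq on GRCm38.p6, 5′ to 3′ on the gene's own strand, with matches on either strand in capitals.
Il9r, minus strand of chr11:32200280-32200529: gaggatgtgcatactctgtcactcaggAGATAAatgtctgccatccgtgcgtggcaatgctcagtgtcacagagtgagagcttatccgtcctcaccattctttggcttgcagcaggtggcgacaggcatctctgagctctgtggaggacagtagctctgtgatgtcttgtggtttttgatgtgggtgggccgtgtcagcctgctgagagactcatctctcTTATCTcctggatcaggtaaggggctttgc
Il17rb, minus strand of chr14:30008897-30009146: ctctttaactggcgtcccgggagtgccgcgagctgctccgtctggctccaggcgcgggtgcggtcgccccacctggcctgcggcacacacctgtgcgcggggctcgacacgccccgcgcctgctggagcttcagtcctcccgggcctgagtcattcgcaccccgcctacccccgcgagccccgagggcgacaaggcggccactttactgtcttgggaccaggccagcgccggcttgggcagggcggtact
Il2rg, minus strand of chrX:101268256-101268505: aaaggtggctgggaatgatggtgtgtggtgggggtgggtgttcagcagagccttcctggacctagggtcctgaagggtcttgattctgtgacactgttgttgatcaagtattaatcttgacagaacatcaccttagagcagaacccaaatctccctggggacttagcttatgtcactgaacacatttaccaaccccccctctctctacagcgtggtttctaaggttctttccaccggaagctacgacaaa
Il9r held AGATAA once on each strand, ending 217 and 24 bases before the start, and was the only one of the 8 chains in the table with this motif. AGATAA was present in 9.99% of the 32851 promoters of the table over the same 250 bases, and TTCNNNGAA in 7.02%. Il7r was the only chain with TTCNNNGAA. The motifs do not overlap each other, and a match is a description of these letters alone.

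Levels between genes were compared on the deposited RPKM, which divides by transcript length. In WT ILC2s, Il2rg was the most abundant chain at 1306 ± 401 RPKM (SD, n = 4), and Il17rb followed at 582 ± 56.2 RPKM. The ranges of these chains did not overlap each other, and Il17rb did not overlap the next chain, Il2rb, at 194 ± 84.8 RPKM. Il7r was at 148 ± 21.0 RPKM and overlapped Il2rb. Below these came Il2ra at 92.7 RPKM, Il9r at 73.2, Il4ra at 45.0, Il17ra at 43.3 and Crlf2 at 38.1, and each of these overlapped the next of the 5. Il21r, whose product binds IL-21, was lowest at a mean of 2.07 RPKM, without overlap with Crlf2. The IL-25 receptor chains were thus unequal in mRNA, with Il17rb over Il17ra in all 4 WT ILC2 libraries.

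In WT ILC2p, Il2rg again led at 1429 ± 173 RPKM (n = 4). Il17rb at 259 ± 61.3 RPKM and Il7r at 251 ± 48.6 RPKM overlapped, followed without overlap by Il2ra at 155 ± 17.3 RPKM and then Il2rb at 42.2 ± 36.3 RPKM. The remaining chains lay between 3.53 RPKM (Il21r) and 33.9 RPKM (Il17ra), and all neighbours among them overlapped. Il7r and Il2ra encode CD127 and CD25, which were used to sort both cell types, so their presence is not a finding.

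The spread between replicates set what could be compared. Over the 4 WT ILC2 libraries the SD of log2 CPM (gene counts relative to library size) had a median of 0.47 for the 10 chains, beside 0.82 over the 12806 genes tested. In Tgfbr2-/- ILC2s both medians were 0.50. The median was 0.93 for the chains and 1.60 for all genes in WT ILC2p, and 1.09 and 2.36 in Tgfbr2-/- ILC2p. Il2ra was the steadiest chain in WT ILC2s at 0.11, whereas Il21r had an SD of 3.49 there and Il17ra one of 3.68 in WT ILC2p, where a single library held 9 counts of it. CPM here are scaled by TMM factors over all 15 libraries.

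**Figure D1:**
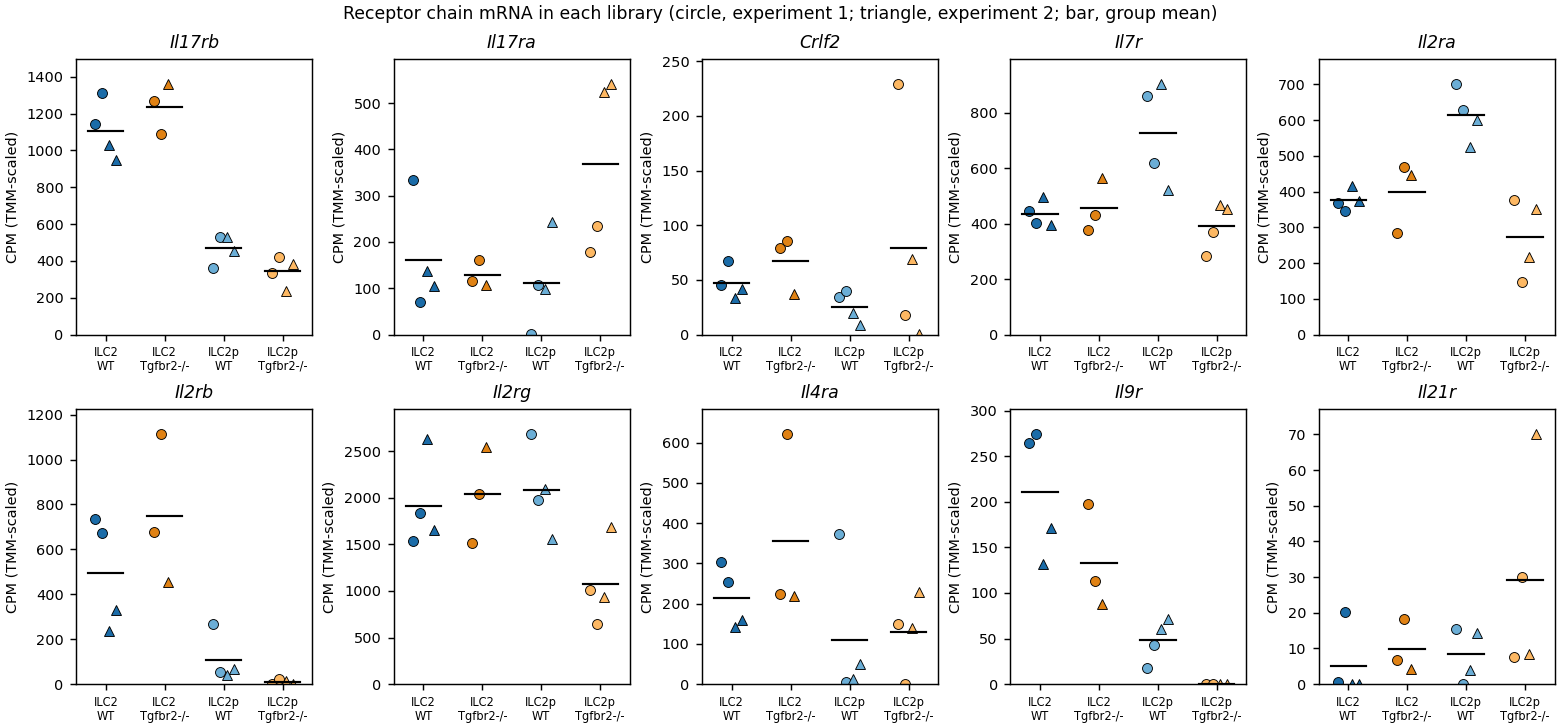
mRNA of the 10 receptor chains in CPM (linear axes from 0) for each of the 15 libraries in 4 groups; circles are experiment 1, triangles experiment 2 and bars group means. Il17rb and Il9r were higher in every WT ILC2 library than in every WT ILC2p library, and Il9r was at or below 0.658 CPM in the 4 Tgfbr2-/- ILC2p libraries.

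The WT ILC2 libraries held 172, 262, 150 and 207 CPM of Tgfbr2, the targeted gene, and the Tgfbr2-/- ILC2 libraries held 206, 184 and 96.6 CPM. The WT ILC2p libraries held 0.714, 233, 107 and 188 CPM and the Tgfbr2-/- ILC2p libraries 87.4, 130, 30.9 and 219 CPM. These values overlap, with log2 fold changes of -0.46 ± 0.24 (SE; edgeR adjusted p = 0.898) in ILC2s and -0.21 ± 1.21 (adjusted p = 0.99) in ILC2p. The counts do not resolve the floxed part of the transcript, so they do not check the labels.

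The labelled cell types were then checked against markers. ILC2 markers took 0.676 to 1.02% of counts in WT ILC2s, 0.595 to 0.906% in Tgfbr2-/- ILC2s and 0.589 to 0.696% in WT ILC2p, and Gata3 was the most abundant in each. All 11 had counts in each group, the Tgfbr2-/- ILC2p included, but not in every library. In WT ILC2p, Il5 was at most 9.61 CPM and Il13 at most 0.922 CPM. In the 4 Tgfbr2-/- ILC2p libraries the same markers took 0.212 to 0.285% of counts, and Gata3 was at 1218, 870, 913 and 1942 CPM against 4735, 2698, 3009 and 2329 CPM in WT ILC2p.

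Neutrophil markers took 5.86 to 7.14% of counts in the 4 Tgfbr2-/- ILC2p libraries, against 0.0150 to 0.0468% in WT ILC2p and at most 0.00232% in ILC2s. S100a8, a calcium-binding protein abundant in neutrophils and the most abundant of the list, was at 23800 to 29610 CPM in them and at 59.0 to 167 CPM in WT ILC2p. All 8 listed neutrophil genes were higher in every Tgfbr2-/- than in every WT ILC2p library, and none was at 0 in either group. The cells were sorted as lineage-negative, with antibodies that included Gr-1 and CD11b. Mast cell and basophil markers took 0.18 to 0.251% against 0.0132 to 0.0274% in WT ILC2p, led by Hdc (histidine decarboxylase) in Tgfbr2-/- and by Cpa3 in WT libraries. Of the 6 tested, 5 were called higher in Tgfbr2-/- ILC2p: Hdc, Prss34, Mcpt8, Fcer1a and Gata2 (edgeR adjusted p between 2.69e-05 and 0.0562). Cpa3 overlapped between the genotypes (log2 difference -0.02 ± 0.49, edgeR adjusted p = 0.999), and Ms4a2 was at 0 in 7 of the 8 libraries and at 0.0851 CPM in the other. Macrophage and dendritic cell markers took 1.03 to 1.09% against 0.00388 to 0.00813%, nearly all of it Lyz2 (10890 to 12560 CPM in Tgfbr2-/- libraries), a lysozyme gene that neutrophils also express. Lyz2 was called (adjusted p = 1.09e-05) and Csf1r and Cd68 were not (adjusted p = 0.228 and 0.408), Flt3 was at 0 throughout, and Itgax was at most 0.268 CPM in ILC2p. Cd68 was nevertheless at 71.1 to 224 CPM in Tgfbr2-/- and at most 17.05 CPM in WT ILC2p, without overlap. Csf1r was at 0.62 to 290 CPM and at most 8.03 CPM, with overlap. Eosinophil markers, led by Prg2, took 0.0263 and 0.0318% in replicate 1 of each experiment of the Tgfbr2-/- ILC2p but 3.65e-05 and 4.38e-05% in replicate 2, within the WT range of 3.12e-05 to 5.53e-04%. NK and ILC1 markers took 0.00918 to 0.0346% against 4.07e-05 to 0.0039% in WT ILC2p, led by Prf1, and Gzma rose (edgeR adjusted p = 0.0568). T cell markers took 0.00893 to 0.0191% against 0.0347 to 0.0458%, led by Lat. Of the 8 listed T cell genes, only Lat passed the filter on low counts, and it fell (edgeR adjusted p = 0.0716). Erythroid markers took 0.00915 to 0.0774% against 0.0125 to 0.0294%, led by Car2, with overlap. Every Tgfbr2-/- ILC2p library stood apart in the summed share of neutrophil markers, so no comparison without such libraries could be made. Fewer cells of a type and less RNA per cell cannot be told apart in bulk libraries, and the part of these transcripts in the ILC2p results was not tested.

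In the ILC2 libraries of both genotypes, T cell markers took 0.0345 to 0.0507% of counts, led by Lat with Cd8a at 0. NK and ILC1 markers took 0.0228 to 0.107%, led by Gzma with Eomes at 0, and ILC3 markers 0.00342 to 0.0496%, led by Il22. B cell markers took at most 0.00971% there, led by Cd79b with Pax5 at 0, and epithelial markers at most 0.0944%, led by Krt8.

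**Figure D2:**
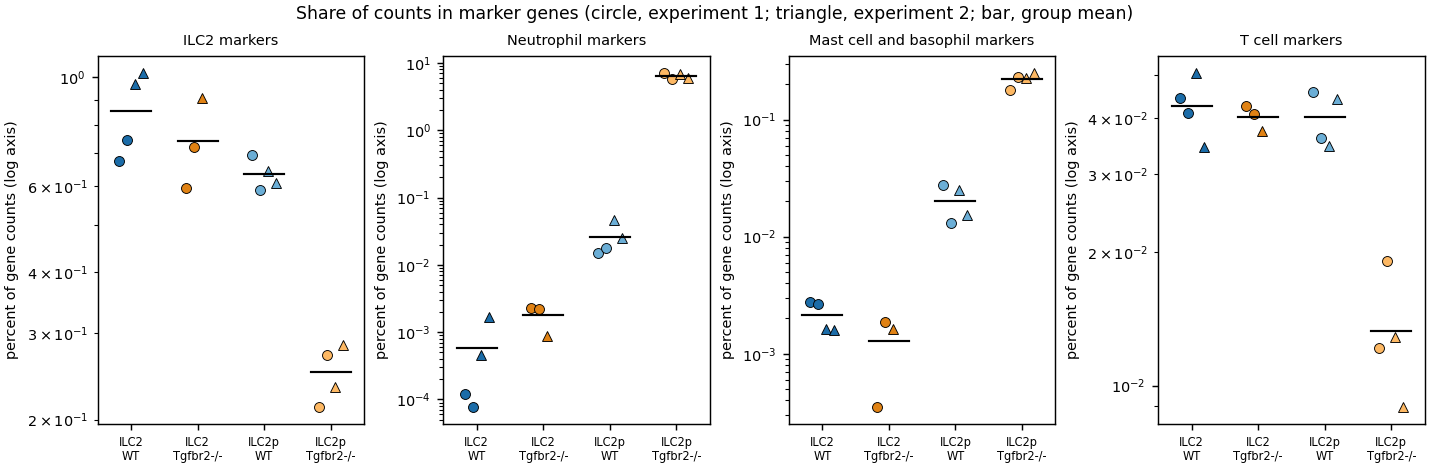
Percent of gene counts (log axes) in 4 marker lists for each library; circles are experiment 1, triangles experiment 2 and bars group means. Tgfbr2-/- ILC2p lie lowest for ILC2 markers (0.212 to 0.285%) and highest for neutrophil markers (5.86 to 7.14%).

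The first comparison asked how the chains differed between mature ILC2s and their precursors. Across WT libraries, Il17rb rose, and it was the only chain of 10 to pass edgeR's quasi-likelihood test at a Benjamini-Hochberg adjusted p under 0.1 and a fold change over 1.5. The fit held all 15 libraries in 4 groups, so its estimate of the spread also draws on the Tgfbr2-/- libraries. The background was 2.36% of all genes tested (302 of 12806). The median log2 difference over the 10 chains, ILC2 minus ILC2p, was 0.70, beside -0.02 over all genes. Cell type, organ, chimeric host and experiment differ together between these groups and cannot be told apart. Marker shares differed too: NK and ILC1 markers took 0.0228 to 0.0374% of counts in WT ILC2s and 4.07e-05 to 0.0039% in WT ILC2p. For B cell markers these were 0.00605 to 0.00971% and 7.38e-05 to 0.00451%. Neutrophil markers ran the other way, at most 0.00168% in WT ILC2s and 0.0150 to 0.0468% in WT ILC2p. The part of these markers was not tested.

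Il17rb, the IL-25-binding chain, was at 1144, 1310, 1028 and 947 CPM in WT ILC2s and at 363, 529, 531 and 455 CPM in WT ILC2p. Every ILC2 library was above every ILC2p library, and the group means differed 2.36-fold. The exact two-sided permutation test over the 8 libraries gave p = 0.0286, the smallest it allows, as it did for Il9r, Il7r and Il2ra. The log2 fold change of Il17rb was 1.24 ± 0.22 (SE, edgeR adjusted p = 0.00913). The call held in all 24 alternatives, with adjusted p between 0.00126 and 0.0437. Its partner Il17ra was at 334, 69.5, 137 and 106 CPM in ILC2s and at 0.803, 107, 98.9 and 243 CPM in ILC2p, and the groups overlapped (log2 difference 0.52 ± 0.89, adjusted p = 0.99).

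Il9r, the IL-9-binding chain, was at 265, 275, 132 and 171 CPM in WT ILC2s and at 17.9, 42.6, 60.1 and 71.9 CPM in WT ILC2p. The groups did not overlap and the means differed 4.38-fold, but the log2 difference of 2.13 ± 0.69 missed the edgeR threshold (adjusted p = 0.166). It passed with DESeq2 (adjusted p = 0.00472), with limma on log2(RPKM + 1) (adjusted p = 0.0752), and without replicate 2 of experiment 1 of the Tgfbr2-/- ILC2p (adjusted p = 0.0556). Il2rb, the β chain shared by the IL-2 and IL-15 receptors, was at 736, 675, 237 and 331 CPM in ILC2s and at 269, 55.8, 41.3 and 67.9 CPM in ILC2p. The highest ILC2p library reached into the ILC2 range, and the log2 difference of 2.19 ± 0.99 was not called (adjusted p = 0.356).

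The 2 chains used for sorting lay the other way. Il7r, shared by the receptors for IL-7 and TSLP, was at 445, 402, 495 and 394 CPM in WT ILC2s and at 860, 618, 904 and 523 CPM in WT ILC2p, without overlap. Its log2 difference was -0.74 ± 0.25 (adjusted p = 0.19). Il2ra, the high-affinity IL-2 chain, differed by -0.71 ± 0.30 (adjusted p = 0.304), also without overlap. Neither passed the threshold. Il2rg was level, at 1541, 1837, 2628 and 1656 CPM in ILC2s and 2688, 1980, 2092 and 1555 CPM in ILC2p, with a log2 difference of -0.12 ± 0.28 (adjusted p = 0.99) whose sign changed with upper quartile scaling (0.066), with a minimum of 10 counts in every library (0.0029) and without replicate 1 of experiment 1 of the WT ILC2p (0.030). Crlf2, the TSLP-binding chain, differed by 0.87 ± 1.10, Il4ra, the IL-4-binding chain, by 0.96 ± 1.17, and Il21r by -0.69 ± 1.85, none of them called.

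The same contrast among Tgfbr2-/- libraries called 4 of 10 chains, all higher in ILC2s, where 11.7% of genes tested were called. Il17rb differed by 1.85 ± 0.24 on the log2 scale (edgeR adjusted p = 2.03e-04), Il9r by 8.40 ± 0.94 (adjusted p = 5.88e-05), Il2rb by 6.26 ± 1.21 (adjusted p = 0.00715) and Il2rg by 0.93 ± 0.30 (adjusted p = 0.0742). Il2rg did not hold in 8 of its 24 alternatives, among them DESeq2 (adjusted p = 0.198) and leaving out replicate 2 of experiment 1 (0.157) or the library of experiment 2 (0.278) of the Tgfbr2-/- ILC2s, or replicate 1 (0.127) or 2 (0.143) of experiment 1 or replicate 1 of experiment 2 (0.114) of the Tgfbr2-/- ILC2p. All 4 differences are against the ILC2p libraries that hold neutrophil transcripts at 5.86 to 7.14% of counts, whose part was not tested.

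**Figure D3:**
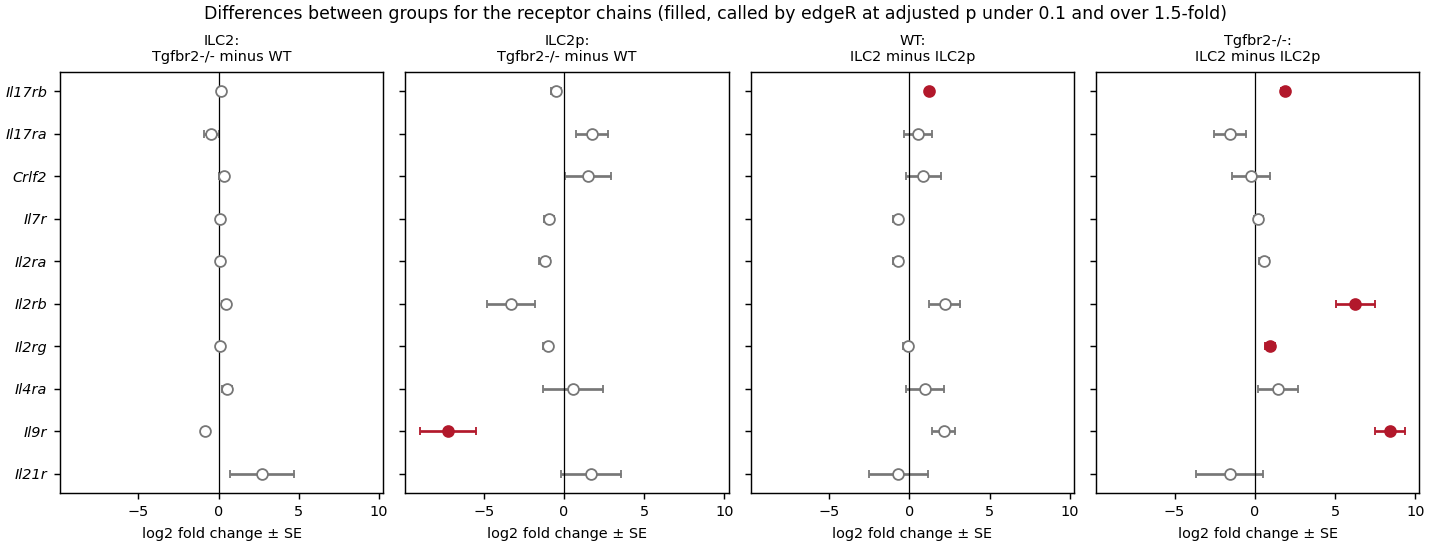
log2 fold changes with SE from edgeR for the 10 receptor chains in 4 comparisons; filled points passed an adjusted p under 0.1 and a fold change over 1.5. No chain was called in ILC2s by genotype, Il9r in ILC2p, Il17rb between WT cell types, and 4 chains between Tgfbr2-/- cell types.

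The next question was whether loss of the TGF-β receptor changed the chains in mature ILC2s. None of the 10 chains was called between Tgfbr2-/- and WT ILC2s by edgeR, as was none of the 11981 genes tested (0%). At an unadjusted p under 0.05 there were 557 genes (4.65%) and 1 chain, Il9r. DESeq2 called 338 genes and 1 chain, and limma called none. The median log2 difference over the chains was 0.13, beside -0.01 over all genes.

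Il9r was at 197 and 114 CPM in the Tgfbr2-/- ILC2s of experiment 1, where WT ILC2s were at 265 and 275 CPM. In experiment 2 it was at 87.5 CPM against 132 and 171 CPM. All 3 Tgfbr2-/- libraries lay below both WT libraries of their own experiment, although the groups overlapped when experiments were pooled. The log2 fold change was -0.82 ± 0.23 (edgeR adjusted p = 0.898, DESeq2 adjusted p = 0.0647). The exact permutation test within experiments gave p = 0.0556, which is the smallest p that 18 arrangements allow. Epithelial markers were higher in all 3 Tgfbr2-/- libraries than in both WT libraries of their experiment, at 0.00505 and 0.00436% of counts against 0.00138 and 0.00158% in WT in experiment 1 and at 0.0944% against 0.0116 and 0.0365% in experiment 2. Their part in the ILC2 genotype results was not tested.

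Il2rb was at 676 and 1115 CPM against 736 and 675 CPM in experiment 1 and at 456 against 237 and 331 CPM in experiment 2. It was above both WT libraries in 2 of 3 Tgfbr2-/- libraries, with a log2 difference of 0.46 ± 0.22 (adjusted p = 0.898). In the same 2 libraries NK and ILC1 markers, at 0.0502 and 0.107% of counts, were above both WT libraries of their experiment (0.0374 and 0.0228%, and 0.0244 and 0.0315%), and in the third, at 0.0311%, they were not. Their part in the Il2rb values was not tested. Il17rb was at 1266 and 1089 CPM in the Tgfbr2-/- ILC2s of experiment 1, against 1144 and 1310 CPM in WT. In experiment 2 it was at 1360 CPM against 1028 and 947 CPM. Of the 3 Tgfbr2-/- libraries, 1 lay above and 1 below both WT libraries of its experiment. The log2 difference of Il17rb was 0.13 ± 0.16 (adjusted p = 0.938). Il2rg differed by 0.12 ± 0.20, Il7r by 0.07 ± 0.17, Il2ra by 0.09 ± 0.20, Crlf2 by 0.31 ± 0.28 and Il4ra by 0.55 ± 0.31 on the log2 scale. Il17ra differed by -0.44 ± 0.47. Il21r was too scattered to compare (2.73 ± 2.00): the WT ILC2 libraries held 0.515, 20.2, 0 and 0.0698 CPM, and the Tgfbr2-/- ILC2 libraries 6.73, 18.3 and 4.29 CPM.

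In ILC2p, 1 of 10 chains was called between genotypes, where 3.47% of genes tested were called (321 of 9242). That chain was Il9r, which fell. The median log2 difference was -0.71 over the chains and -0.10 over all genes. These comparisons set WT libraries against those with the high neutrophil marker shares given above.

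Il9r was at 17.9, 42.6, 60.1 and 71.9 CPM in WT ILC2p and at 0.298, 0, 0.511 and 0.658 CPM in Tgfbr2-/- ILC2p. The Tgfbr2-/- values rest on 3, 0, 12 and 17 counts, and the library with none allows up to 0.311 CPM at 3 counts, a limit that covers counting error only. All 4 Tgfbr2-/- libraries lay below all WT libraries, and the group means differed 131-fold. The permutation within experiments gave p = 0.0556, the smallest that its 36 arrangements allow, which Il17ra, Il7r, Il2ra and Il2rb also reached. The log2 fold change of Il9r was -7.23 ± 1.74 (edgeR adjusted p = 0.0801). The direction held in all alternatives, with a size of -3.92 in limma on log2(RPKM + 1), a scale that understates changes of low genes, but the call was lost without a filter on low counts (adjusted p = 0.13), in each experiment alone, with replicate numbers as a block (adjusted p = 0.239), and on leaving out any 1 of the 8 libraries (adjusted p between 0.101 and 0.231).

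Il2rb was at 269, 55.8, 41.3 and 67.9 CPM in WT ILC2p and at 0.397, 23.5, 14.7 and 0.465 CPM in Tgfbr2-/- ILC2p. The groups did not overlap and the means differed 11.1-fold. The Tgfbr2-/- libraries split into 2 below 1 CPM and 2 above 10 CPM, and the log2 difference of -3.31 ± 1.51 was not called (edgeR adjusted p = 0.548, DESeq2 adjusted p = 0.0788).

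Il2rg was at 2688, 1980, 2092 and 1555 CPM in WT ILC2p and at 1015, 641, 937 and 1692 CPM in Tgfbr2-/- ILC2p, and the last of these overlapped the WT range. Its log2 difference was -1.02 ± 0.30 (adjusted p = 0.165). Il7r was at 284, 369, 467 and 452 CPM in the Tgfbr2-/- libraries, all below the WT values, with a log2 difference of -0.94 ± 0.29 (adjusted p = 0.206). Il2ra was at 377, 146, 218 and 352 CPM against 701, 629, 523 and 601 CPM, with a log2 difference of -1.20 ± 0.35 (adjusted p = 0.169). These 3 chains missed the threshold as fitted but all passed it with library size or upper quartile scaling and with limma on RPKM, where 4 of 10 chains were called beside 322 to 477 of the 9242 genes, and with a minimum of 10 counts in every library. Il2rg also passed with no filter (adjusted p = 0.0049) and without replicate 2 of experiment 2 of the Tgfbr2-/- ILC2p (adjusted p = 0.0596).

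Of the IL-25 receptor chains, Il17rb was at 334, 420, 238 and 383 CPM in Tgfbr2-/- ILC2p. It overlapped WT and lay below both WT libraries of its experiment in 3 of 4 libraries, as Il2rg did, with a log2 difference of -0.49 ± 0.31 (adjusted p = 0.783). Il17ra was at 178, 235, 524 and 541 CPM, above both WT libraries of its experiment in 4 of 4 libraries, with a log2 difference of 1.76 ± 1.01 (adjusted p = 0.731). Crlf2 ran from 0.271 to 229 CPM, Il4ra from 0.622 to 229 CPM and Il21r from 7.65 to 70.2 CPM in Tgfbr2-/- ILC2p, and none was called.

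Since Gata3 itself was lower in Tgfbr2-/- ILC2p (log2 fold change -1.41 ± 0.31, edgeR adjusted p = 0.0603), each chain was also expressed as a ratio to Gata3 in its own library. This measure was chosen after the values were seen and has no test. A gene that fell less than Gata3 gives a positive difference on it, and the share of all genes without overlap was not computed. The log2 ratio of Il9r to Gata3 lay between -8.04 and -5.02 in WT ILC2p and between -13.2 and -10.6 in Tgfbr2-/- ILC2p, a mean difference of -5.51 without overlap. For Il2rb the difference was -3.30, with overlap. For Il2ra and Il7r it was 0.14 and 0.52, and for Crlf2 and Il4ra 1.09 and 1.70, all with overlap. Every Tgfbr2-/- library lay above every WT library for Il2rg (0.38), Il17rb (0.93), Il21r (4.08) and Il17ra (4.48). The gaps were narrow for 3 of these. The lowest Tgfbr2-/- ratio and the highest WT ratio were -2.34 and -2.35 for Il17rb, -0.440 and -0.447 for Il2rg, and -7.30 and -7.33 for Il21r. Against the mean of 8 ILC2 markers detected in all ILC2p libraries, Il9r differed by -6.01 and Il2rb by -3.80, both without overlap, and so did Il17ra, by 3.98. The other chains overlapped between the genotypes on this scale, Il17rb (0.43), Il2rg (-0.12) and Il21r (3.58) among them, as did Il7r (0.02), Il2ra (-0.36), Crlf2 (0.58) and Il4ra.

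**Figure D4:**
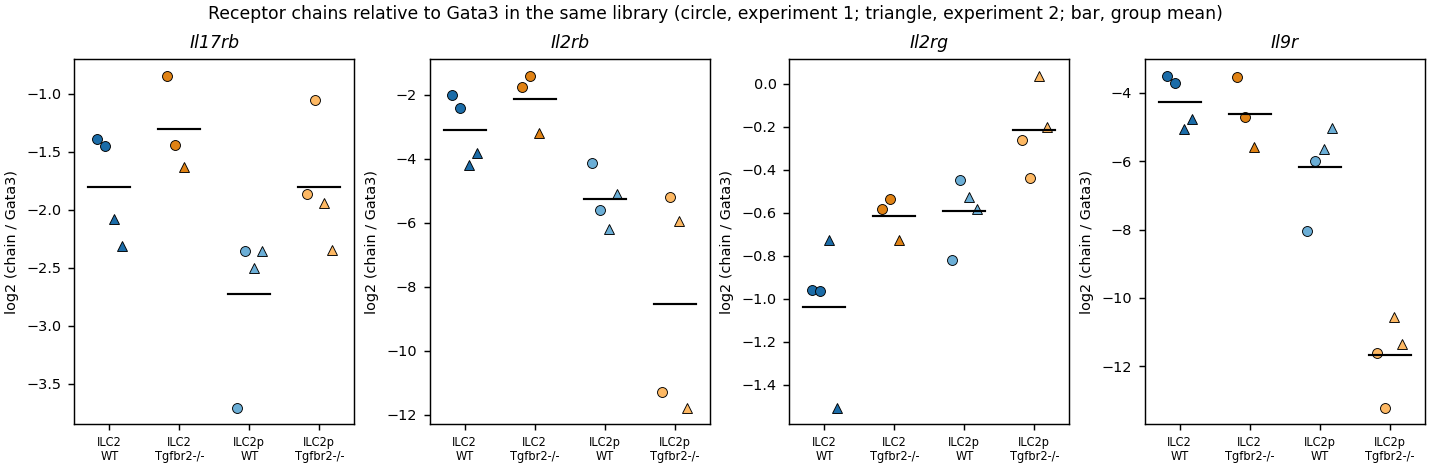
log2 ratio of 4 receptor chains to Gata3 in the same library; circles are experiment 1, triangles experiment 2 and bars group means. In ILC2p the Il9r ratio lies between -13.2 and -10.6 in Tgfbr2-/- and between -8.04 and -5.02 in WT libraries, whereas every Tgfbr2-/- library lies above every WT library for Il17rb and Il2rg. The gaps for Il17rb and Il2rg are narrow, and Gata3 itself was lower in Tgfbr2-/- ILC2p. The share of all genes without overlap was not computed.

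Whether the genotype difference itself differed between the cell types was tested as an interaction. Il9r was the 1 chain of 10 called, where 0.992% of genes were called. Its genotype difference in ILC2s exceeded that in ILC2p by 6.35 ± 0.94 on the log2 scale (edgeR adjusted p = 0.00904), and this was lost without the Tgfbr2-/- ILC2 library of experiment 2 (adjusted p = 0.112). Il2rb gave 3.79 ± 1.41 (adjusted p = 0.278), Il2ra 1.28 ± 0.45 (adjusted p = 0.25), Il2rg 1.13 ± 0.40 (adjusted p = 0.253), Il7r 1.01 ± 0.36 (adjusted p = 0.258) and Il17rb 0.61 ± 0.32 (adjusted p = 0.506), none of them called. The median over all genes was 0.31. The ILC2p side of this test rests on the Tgfbr2-/- libraries with the high neutrophil marker share. Of the 8 neutrophil genes, 3 were called in the same interaction (Mmp8, Ltf and Cxcr2), and their part in the Il9r result was not tested.

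The experiments also differed. In ILC2s, 0.977% of genes were called between experiment 2 and experiment 1, with genotype in the model, and Il2rb was the 1 chain among them. Its 4 libraries of experiment 1 lay at 675 to 1115 CPM and its 3 libraries of experiment 2 at 237 to 456 CPM, a log2 difference of -1.20 ± 0.23 (edgeR adjusted p = 0.0815) that was lost on leaving out any 1 library. Il4ra (-0.94 ± 0.32), Il9r (-0.86 ± 0.23) and Crlf2 (-0.82 ± 0.29) were lower in experiment 2 without being called (adjusted p between 0.158 and 0.266). Of 11 STAT5 target and feedback genes, 3 were called, all lower in experiment 2: Cish and Socs3, inhibitors of cytokine signalling, and Pim1, a kinase. They were picked out after their values were seen, and all 3 calls were lost without replicate 1 of experiment 2 of the WT ILC2s, where no gene was called. Epithelial markers moved with the experiments, at 0.00138 to 0.00505% of counts in experiment 1 and 0.0116 to 0.0944% in experiment 2, and so did ILC3 markers, at 0.0232 to 0.0496% and 0.00342 to 0.0165%, and ILC2 markers, at 0.595 to 0.744% and 0.906 to 1.02%. The part of these in the result was not tested. In ILC2p no chain and none of the genes tested (0%) was called between experiments by edgeR, with 288 genes at an unadjusted p under 0.05 and 397 called by DESeq2.

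Among the ligands, partner chains and signalling genes of these receptors, 40 in all, none of the 33 tested was called by genotype in ILC2s (0% of all genes). In ILC2p 3 of 28 were called, beside 3.47% of all genes: Il13ra1, a partner of the IL-4 receptor α chain, and Osm, a STAT5 target cytokine, rose, and Ccnd2, the cell cycle regulator cyclin D2, fell. Il13ra1 was at 28.5 to 81.2 CPM in Tgfbr2-/- ILC2p against at most 0.311 CPM in WT ILC2p (edgeR adjusted p = 0.0269). Osm differed by 1.84 ± 0.32 on the log2 scale (adjusted p = 0.0187) and Ccnd2 by -1.26 ± 0.26 (adjusted p = 0.0467). Osm was also the 1 of 34 called in the interaction (0.992% of all genes), at -2.16 ± 0.44 (adjusted p = 0.0494). These differences are in the libraries with the high neutrophil marker share, whose part was not tested.

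Between the WT cell types, 1 of 34 was called, beside 2.36% of all genes. Il17a, a ligand for IL-17RA, had no counts in any of the 8 ILC2p libraries, which allows at most 0.311 CPM, and 0.14 to 11.2 CPM in ILC2s (edgeR adjusted p = 0.0843). It is also an ILC3 marker, and 2 of the 6 ILC3 markers were called higher in WT ILC2s, Il17a and Il22 (edgeR adjusted p = 0.0138). The part of ILC3 transcripts in the Il17a result was not tested. Between the Tgfbr2-/- cell types 7 of 34 were called, beside 11.7% of all genes: Il17a, Il2, Il4, Pim1 and Ccnd2 were higher in ILC2s, and Mcl1 and Osm lower. All 8 neutrophil genes and all 6 mast cell and basophil genes tested were called lower in ILC2s in that comparison. Their part in these 7 calls was not tested. None of 8 JAK and STAT genes and none of 5 IL-25 adaptor genes (4 tested in ILC2p) was called in any of the 3 comparisons of genotype and WT cell type.

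The genes whose levels followed Il17rb and Il2rb most closely were found by Pearson's r of log2(CPM + 1) over the 15 libraries, after the mean of each cell type was removed. For Il17rb these were C920025E04Rik (0.85), Zbtb44 (0.82) and Ddhd2 (0.82). For Il2rb they were Eci1 (0.94), Josd1 (0.94) and Ppp6c (0.93). The 15 points share experiments, genotypes and library depth, and 12805 genes were compared for each, so these are descriptions only.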

How the data were processed

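RNA-seq was analysed for 7 ILC2 and 8 ILC2p libraries. The authors aligned reads to mm9 (TopHat per the methods, Bowtie2 per the submitters' processing notes) and deposited gene counts and RPKM made with rpkmforgenes over full RefSeq transcripts. The strand is not given in the sources used here. Counts were tested with edgeR 4.0.16 (R 4.3.3; TMM, filterByExpr, quasi-likelihood) across all genes, with experiment as a term for genotype and 4 group means for cell type. Calls needed an adjusted p under 0.1 and a fold change over 1.5. DESeq2 1.42.0, limma 3.58.1 on log2(RPKM + 1) or log2(RPKM + 0.1), other scalings, filters, a replicate block and left-out libraries were alternatives. The fit was tested on simulated data. Single chains were also tested by exact two-sided permutation of log2 CPM (prior count 2), 30 tests in all. Library totals were 10957021 to 35961215. By rule, the pathway genes named were those called by genotype, interaction or WT cell type, and the marker genes ILC2 markers and the 3 most abundant of each other list. Pathway genes called only between Tgfbr2-/- cell types or between experiments, and less abundant markers, were named after their values were seen. The chains and lists were chosen with earlier results of these data known.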

Additional observations from a re-analysis of the deposited data

Results flagged for a closer look

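The genotype difference of Il9r differed between the cell types by 6.35 on the log2 scale in a test of the interaction. In 3 of 30 groups of 4 libraries, 1 library lay further from the others than Dixon's limit allows, where chance gives about 1 in 20. In WT ILC2p, replicate 1 of experiment 1 was highest for Il2rb (269 CPM) and for Il4ra (372 CPM), and this library also held 9 counts of Il17ra and 8 of Tgfbr2. In WT ILC2s, replicate 2 of experiment 1 was highest for Il21r (20.2 CPM).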

How the results depend on the processing

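Of 913 alternative values of single chains, 831 kept their direction and their side of the threshold, 35 newly passed it, 32 no longer did, and 15 changed sign; none of these 15 belonged to a called result. Il17rb between WT cell types, and Il17rb, Il2rb and Il9r between Tgfbr2-/- cell types, were called in each of their 23 or 24 alternatives.

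Between genotypes in ILC2s, no gene was called by edgeR, DESeq2 called 338 genes and 1 chain, and edgeR with no filter on low counts called 3 genes. The sign turned in experiment 1 alone for Il17rb (-0.076) and Il7r (-0.088). On leaving out 1 library the log2 difference ranged from -0.094 to 0.24 for Il17rb, -0.76 to 0.40 for Il17ra, -0.10 to 0.18 for Il7r and -0.087 to 0.27 for Il2ra.

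Between genotypes in ILC2p, DESeq2 called 1229 genes and 2 chains. Of 9242 genes, limma called 477 at a pseudocount of 1 and 457 at 0.1, library size scaling 328 and upper quartile scaling 322, and each called 4 chains. A minimum of 10 counts in every library left 199 of 3629 genes and 3 of 4 chains tested, experiment 1 alone 38 genes and 0 chains, experiment 2 alone 77 genes and 0 chains, and an adjusted p under 0.05 left 217 genes and 0 chains. With the replicate block 175 genes and 0 chains were called. Same-numbered libraries of the 2 genotypes did not deviate together (r between -0.05 and -0.01 across genes in the 3 experiments that allow it). A single replicate difference per genotype and experiment cannot exclude a pairing with a small effect. The block changed no call of a chain by genotype but that of Il9r in ILC2p. Leaving out 1 library gave 179 to 319 genes (fewest without replicate 1 of experiment 2 of WT ILC2p) and 0 to 1 chain. Crlf2 turned negative with limma at a pseudocount of 1 (-0.031) or 0.1 (-0.51) and with the replicate block (-0.031). Il4ra did so in experiment 1 alone (-1.34) and ranged from -0.31 to 2.93 on leaving out 1 library.

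Between WT cell types, DESeq2 called 950 genes and 2 chains, limma at a pseudocount of 1 called 390 genes and 2 chains and at 0.1 458 genes, the minimum of 10 counts 98 genes and an adjusted p under 0.05 151 genes. Leaving out 1 library gave 156 to 370 genes and 1 to 2 chains. Il2rg turned positive with upper quartile scaling (0.066) and with the minimum of 10 counts (0.0029), and ranged from -0.31 to 0.030 on leaving out 1 library, as Il17ra did from -0.11 to 1.23. Between Tgfbr2-/- cell types, DESeq2 called 2529 genes, limma at 0.1 2480, no filter 988, the minimum of 10 counts 412 genes and 2 chains, and an adjusted p under 0.05 750 genes. Leaving out 1 library gave 596 to 1904 genes and 3 to 4 chains.

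For the interaction, DESeq2 called 1477 genes, limma 382 genes and 4 chains at a pseudocount of 1 and 360 genes and 2 chains at 0.1, library size scaling 196 genes and 2 chains, upper quartile scaling 203 genes and 3 chains, no filter 259 genes and 3 chains, and an adjusted p under 0.05 68 genes. Leaving out 1 library gave 14 to 407 genes (14 without the Tgfbr2-/- ILC2 library of experiment 2) and 0 to 2 chains.

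Between experiments in ILC2s, DESeq2 called 1347 genes and 4 chains, limma at 0.1 255 genes, library size scaling 23 genes and 0 chains, upper quartile scaling 31 genes and 0 chains, no filter 320 genes, and an adjusted p under 0.05 5 genes and 0 chains. Leaving out 1 library gave 0 to 10 genes and 0 chains. In ILC2p, DESeq2 called 397 genes and no filter 5. The causes of these differences were not tested. Single ILC2p libraries held 12 counts or fewer of Il9r, Il2rb, Il21r, Crlf2, Il17ra or Il4ra.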
